A study of Mus musculus with 6 samples.

Results

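Apoe, Barx1, Clu, Ucma, Gas1 and Foxc1, 6 genes linked to the resting zone of growth plate cartilage, were followed in the growth plate of mice lacking 1 of the 2 ATF6 proteins. Every non-control probe whose RefSeq accession belongs to one of these symbols was taken, which gave 8 probes for 6 genes, of 26582 probes and 20145 genes that could be named among 55681 probes on the array. The growth plate is the cartilage layer at which long bones lengthen. It was taken from the tibia of untreated male C57BL/6J mice aged 4 weeks by laser microdissection, and RNA was amplified before it was labelled; the extraction protocol in the labels speaks of frozen hind limb bone. There were 3 genotypes with 2 arrays each, labelled ATF6aKO (knockout of ATF6a, gene Atf6), ATF6bKO (knockout of ATF6b, gene Atf6b) and WT. The labels do not give the deleted part of either gene. Nor do they say that replicate arrays stand for different mice, so p-values measure only the spread between these arrays, which may be technical.

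The resting zone, the layer nearest the end of the bone, holds slowly cycling chondrocytes that supply the columns of proliferating and then hypertrophic cells, and that answer to parathyroid hormone-related protein, hedgehog and Wnt signals. Ucma encodes a small Gla-rich protein secreted by chondrocytes of the upper growth plate. Apoe and Clu encode secreted lipid-binding proteins: apolipoprotein E, which carries lipid between cells, and clusterin, which also acts as a chaperone outside cells. Gas1 encodes a membrane-anchored co-receptor for hedgehog ligands, and Barx1 and Foxc1 encode a homeobox and a forkhead transcription factor. In mouse, Foxc1 works with Gli2 in the response of growth plate chondrocytes to Indian hedgehog. ATF6a and ATF6b are transcription factors anchored in the endoplasmic reticulum and cut free under protein folding stress, and ATF6a acts through the ER stress response element together with the CCAAT-binding factor NF-Y.

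In the region upstream of the start sites, RefSeq promoter sequence was found for 5 of the 6 genes, in 7 windows because Apoe has several start sites. The 250 bases before each start were searched on both strands for the ER stress response element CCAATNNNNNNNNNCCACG, for its ends CCAAT and CCACG on their own, and for the ATF6 binding sequence TGACGTGG, whose other strand contains CCACG. Only CCAAT was found, in Ucma, Gas1 and Foxc1, and these windows are printed for that match. Capitals mark CCAAT, or ATTGG where it lies on the other strand. Each window is written 5′ to 3′ on the gene's own strand, with GRCm38.p6 coordinates: chr2:4975872-4976121 (plus strand) for Ucma, chr13:60177536-60177785 (minus strand) for Gas1 and chr13:31806396-31806645 (plus strand) for Foxc1.
Ucma: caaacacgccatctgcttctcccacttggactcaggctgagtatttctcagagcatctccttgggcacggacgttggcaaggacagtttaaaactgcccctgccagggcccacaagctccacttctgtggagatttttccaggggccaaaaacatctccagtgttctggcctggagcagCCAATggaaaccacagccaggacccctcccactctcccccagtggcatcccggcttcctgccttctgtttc
Gas1: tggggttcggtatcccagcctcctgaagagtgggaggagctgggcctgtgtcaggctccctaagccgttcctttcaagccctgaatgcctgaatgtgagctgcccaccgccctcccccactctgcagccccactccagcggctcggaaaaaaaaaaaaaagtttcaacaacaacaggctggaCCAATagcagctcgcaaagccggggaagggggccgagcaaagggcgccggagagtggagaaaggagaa
Foxc1: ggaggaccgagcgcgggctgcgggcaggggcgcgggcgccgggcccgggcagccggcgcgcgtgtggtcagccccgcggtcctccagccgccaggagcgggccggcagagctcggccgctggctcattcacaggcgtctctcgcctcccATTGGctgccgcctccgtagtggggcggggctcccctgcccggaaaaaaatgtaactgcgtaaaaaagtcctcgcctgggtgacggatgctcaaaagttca
The match begins 71 bases before the start site in Ucma, 68 in Gas1 and 101 in Foxc1, where it lies on the opposite strand. Among 32851 mouse promoters searched the same way, CCAAT occurred in 33.8%, CCACG in 28.3%, TGACGTGG in 0.563% and the whole element in 0.113%. The windows of Apoe and Barx1 held none of these letters, which says only that they are not in these windows. CCAAT was present in genes that were lower in the knockouts (Gas1) and in genes that were higher (Foxc1 in both, Ucma in ATF6aKO).

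Between 86.9% and 96.7% of spots on an array lay well above background, and precision is limited by the number of arrays. The 4 knockout arrays lay on 1 slide and were read in the red channel of a 2-channel scan, and the 2 WT arrays lay on another slide with a 1-channel scan, so genotype cannot be told apart from slide and channel in either comparison with WT. Only ATF6aKO and ATF6bKO shared a slide, on which each genotype filled its own row. Arrays of 1 genotype correlated at r = 0.954 to 0.986 over the 19122 genes tested. The 2 knockouts correlated with each other at 0.964 to 0.983, and knockout with WT arrays at 0.833 to 0.895. The probe for Atf6 was -0.15 ± 0.16 (log2 difference, SE; limma adjusted p = 0.498) in ATF6aKO from WT, and that for Atf6b was -0.54 ± 0.21 (limma adjusted p = 0.0824) in ATF6bKO from WT, neither past the threshold. In the other knockout Atf6 was -0.21 ± 0.16 (ATF6bKO from WT) and Atf6b -0.43 ± 0.21 (ATF6aKO from WT), and neither passed. Between the knockouts (ATF6aKO minus ATF6bKO) Atf6 differed by 0.06 ± 0.16 and Atf6b by 0.11 ± 0.21, which did not pass either. These probes may lie outside the deleted part and so check nothing certain. The cartilage regulator Sox9 was not well above background on either WT array, although the other 13 of 14 measured cartilage matrix and SOX genes were. WT replicate 1 stood apart from WT replicate 2 by 6.91 log2 units for the bone collagen gene Col1a1 and by 3.04 for the globin gene Hba-a1. For the 6 resting zone genes the same 2 arrays differed by between -0.29 and 0.18. Without WT replicate 1 every call of the 6 genes was kept, in direction and threshold, except that Gas1 in ATF6aKO no longer passed.

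Levels are given as normalised log2 intensity, that is, the base 2 logarithm of a spot's brightness after background correction and after all arrays were brought to 1 distribution. A difference of 1 log2 unit is therefore 2-fold. All 6 genes were well above background on all 6 arrays through the probe that stands for each. A difference was called where its Benjamini-Hochberg adjusted p over 19122 genes lay under 0.05 in a limma fit of all 6 arrays.

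Ucma was higher in ATF6aKO than in WT, and ATF6bKO lay between them without passing the test against WT. It measured 10.90 and 11.49 in ATF6aKO, 10.07 and 9.34 in ATF6bKO, against 8.98 and 9.20 in WT. The arrays of the 3 genotypes did not overlap, and the mean levels ran 11.19 ± 0.41, 9.71 ± 0.51 and 9.09 ± 0.16 (SD, n = 2 each) in that order. ATF6aKO lay 4.29-fold above WT, with a difference of 2.10 ± 0.29 log2 units (SE; limma adjusted p = 0.00172). ATF6bKO lay 0.61 ± 0.29 above WT, which did not pass (limma adjusted p = 0.133). This second value depended on the array: it was 0.25 without ATF6bKO replicate 1 and 0.97 without ATF6bKO replicate 2. Before normalisation the single Ucma spot read 1771 and 2624 in ATF6aKO, 860 and 469.5 in ATF6bKO, against 741 and 726.5 in WT, where the ATF6bKO arrays lie on both sides of the WT arrays. At GRCm38.p6, Ucma lies on chromosome 2 from 4976122 to 4985748.

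Apoe was lower in both knockouts, by nearly the same amount. It measured 9.05 and 8.90 in ATF6aKO, 9.05 and 9.01 in ATF6bKO, against 10.55 and 10.37 in WT. All 4 knockout arrays lay within a narrow band below both WT arrays. The log2 difference from WT was -1.48 ± 0.16 in ATF6aKO (SE; limma adjusted p = 0.000864; 2.80-fold lower) and -1.43 ± 0.16 in ATF6bKO (limma adjusted p = 0.00118; 2.69-fold lower). Apoe is the one gene of the 6 whose probe was printed on 10 spots per array. The median spot read 486.5 and 401.25 in ATF6aKO, 428.5 and 370.0 in ATF6bKO, against 2341 and 1670 in WT. The brightest of the knockout spots read 548.5 and the dimmest WT spot 1131, so no spot of a knockout array reached a WT spot. The WT arrays were brighter over all spots too, before normalisation, with a median spot of 146 to 183 on the knockout arrays, against 210 to 259.5 on the WT arrays. The spots of 1 array varied by 4.95% to 12.6% (coefficient of variation). Of these spots, 2 on ATF6bKO replicate 2 and 1 on WT replicate 2 carried an outlier flag, and flagged spots were left out of the normalised values. Apoe lies on chromosome 7 from 19696244 to 19701310.

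Clu was also lower in both knockouts. It measured 7.39 and 7.53 in ATF6aKO, 7.58 and 7.17 in ATF6bKO, against 8.28 and 8.29 in WT. Both WT arrays lay above all knockout arrays, and the knockouts overlapped each other. The log2 difference from WT was -0.83 ± 0.19 in ATF6aKO (SE; limma adjusted p = 0.0109) and -0.91 ± 0.19 in ATF6bKO (limma adjusted p = 0.00863), or 1.77-fold and 1.88-fold lower. With the scanner's background-subtracted signal the difference in ATF6aKO was -1.25. The first just missed the threshold without ATF6aKO replicate 1 (-0.75, limma adjusted p = 0.0506) and the second without ATF6bKO replicate 2 (-0.70, limma adjusted p = 0.0648). These were the highest values over the 14 alternatives computed from the scanner files, and the lowest limma adjusted p was 0.00764 in ATF6aKO and 0.00534 in ATF6bKO. Clu lies on chromosome 14 from 65968483 to 65981548.

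**Figure D1:**
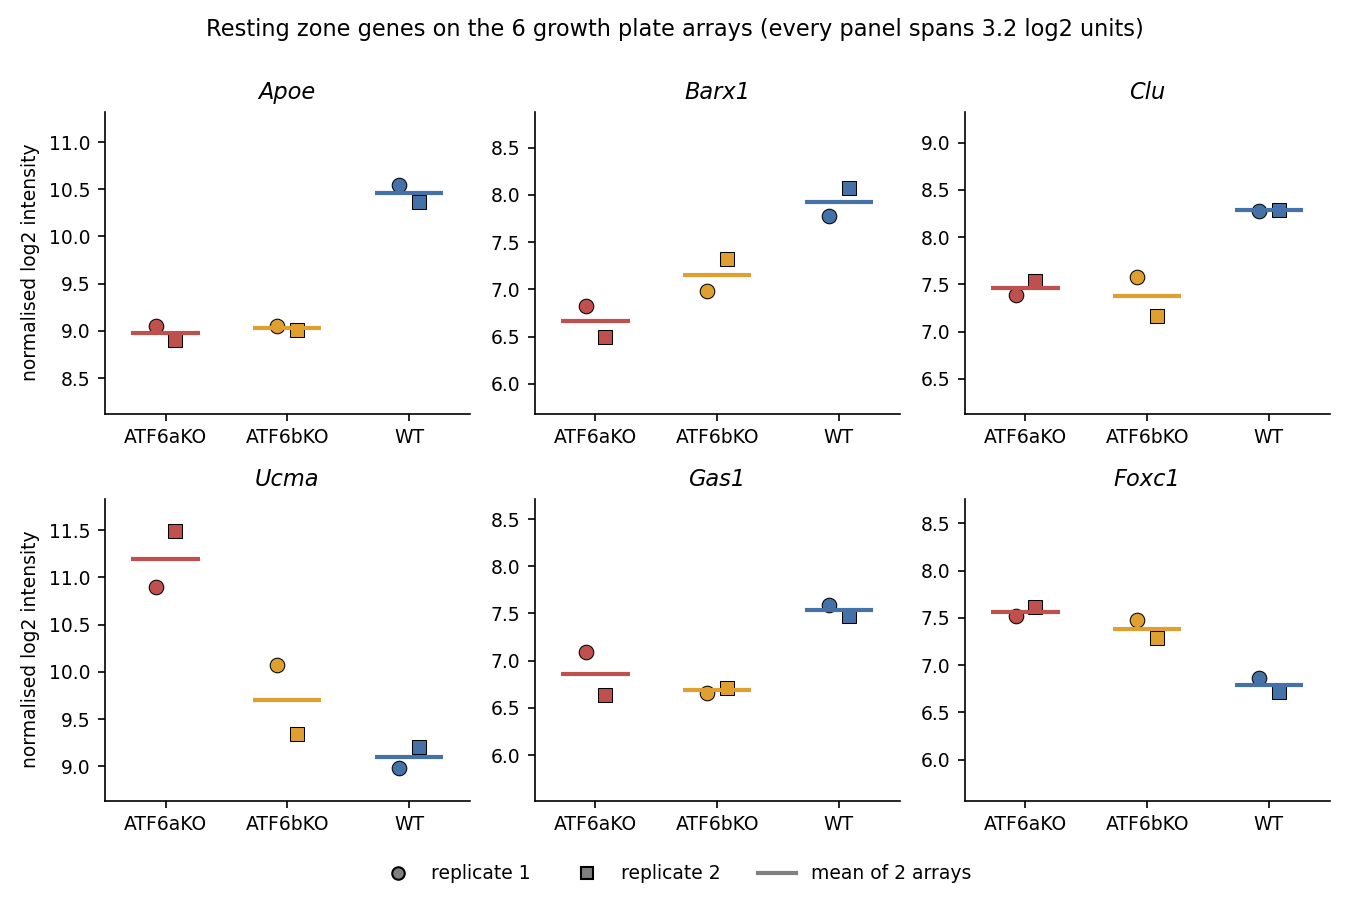
Normalised log2 intensity (vertical axis) of the 6 genes on each array, with ATF6aKO, ATF6bKO and WT from left to right; circles and squares are replicates 1 and 2 and bars the mean of 2 arrays. Apoe, Barx1, Clu and Gas1 sit lower on all 4 knockout arrays than on either WT array, and Ucma and Foxc1 sit higher.

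Gas1 was lower in both knockouts, and it is the gene with several probes. The probe that stands for it, A_55_P2025562, measured 7.09 and 6.64 in ATF6aKO, 6.65 and 6.71 in ATF6bKO, against 7.59 and 7.47 in WT. Both WT arrays lay above all knockout arrays. The log2 difference from WT was -0.67 ± 0.19 in ATF6aKO (SE; limma adjusted p = 0.0262) and -0.85 ± 0.19 in ATF6bKO (limma adjusted p = 0.0123). The spot of this probe was dim on the knockout arrays, at 111.5 and 78 in ATF6aKO and 75 and 70 in ATF6bKO. The local background there was 34 to 39, against WT readings of 240 and 175.5 over 17 to 18. With the scanner's own background-subtracted signal the differences were larger, at -1.49 and -1.87, and with the mean over probes the second was -0.53. A second probe, A_55_P2070510, gave -0.68 ± 0.19 (limma adjusted p = 0.0247) and -0.63 ± 0.19 (limma adjusted p = 0.0370). The third, A_51_P157083, gave -0.33 ± 0.19 (limma adjusted p = 0.197) and -0.11 ± 0.19 (limma adjusted p = 0.682) and did not pass; its spot was the only one of the 8 probes below the well-above-background mark on any array, ATF6aKO replicate 1, where it read 56. So 2 of the 3 probes passed in both knockouts, and all 3 had negative differences. The call of Gas1 in ATF6aKO held under the fewest alternatives of any call made on the 6 genes against WT, 8 of the 14 computed from the scanner files, with a limma adjusted p of 0.00808 to 0.123. The highest p came without ATF6aKO replicate 2, where the difference was -0.45. For Gas1 in ATF6aKO, leaving out either ATF6bKO array gave the same values as fitting only the 4 arrays compared. These alternatives did not pass and are not separate from each other. In ATF6bKO, Gas1 did not pass without ATF6bKO replicate 1 (limma adjusted p = 0.0801) or ATF6bKO replicate 2 (limma adjusted p = 0.0608). Gas1 lies on chromosome 13 from 60174405 to 60177535.

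**Figure D2:**
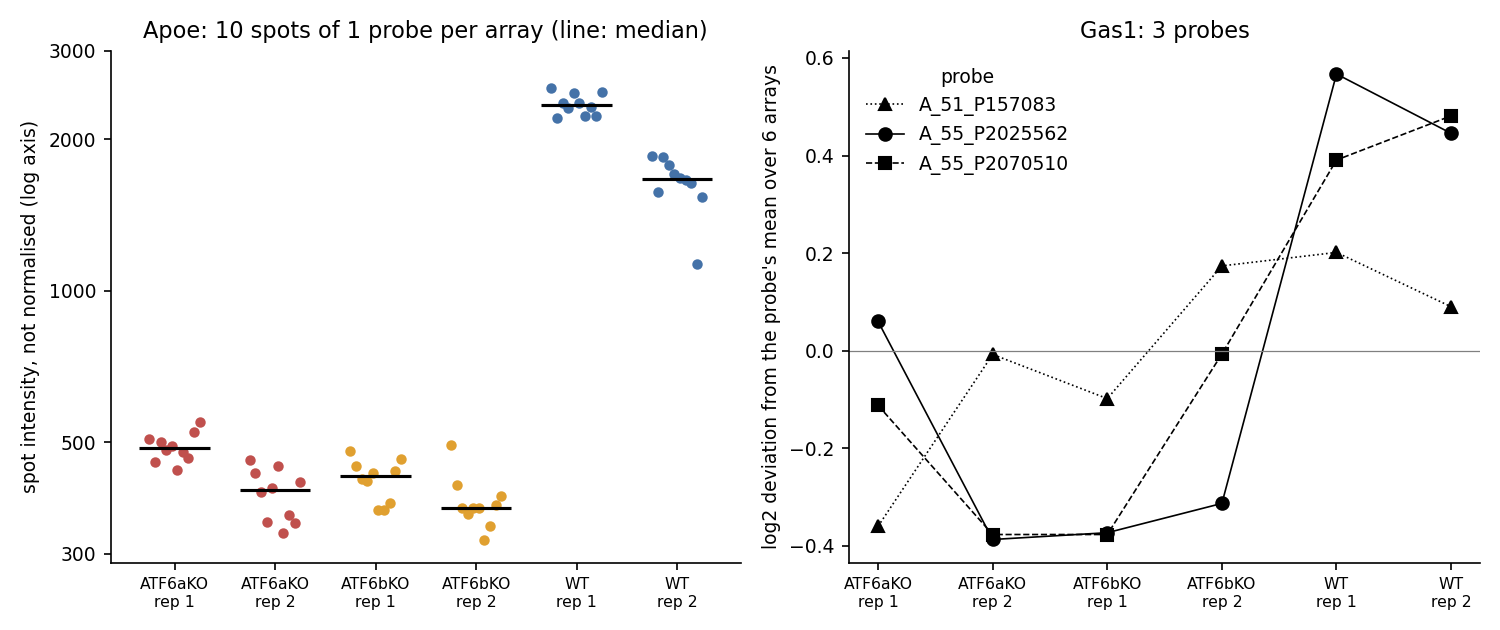
Left, intensity of the 10 Apoe spots on each array before normalisation (log axis), with the median as a line; right, the log2 deviation of the 3 Gas1 probes from each probe's mean over the 6 arrays. No Apoe spot on a knockout array reaches a WT spot, and 2 of the 3 Gas1 probes are highest on the 2 WT arrays while A_51_P157083 on ATF6bKO replicate 2 lies between its WT values.

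Of the transcription factor genes, Barx1 was lower in both knockouts, with its lowest mean in ATF6aKO. It measured 6.82 and 6.50 in ATF6aKO, 6.98 and 7.32 in ATF6bKO, against 7.78 and 8.07 in WT. The 3 genotypes did not overlap. The log2 difference from WT was -1.26 ± 0.21 in ATF6aKO (SE; limma adjusted p = 0.00305; 2.40-fold lower) and -0.77 ± 0.21 in ATF6bKO (limma adjusted p = 0.0222; 1.71-fold lower). The spot was dim on the knockout arrays, at 91.5 and 70 in ATF6aKO and 97 and 112 in ATF6bKO over a local background of 36 to 39, against 283 and 294 in WT over 17 to 18. With the scanner's own background-subtracted signal the differences were larger, at -2.11 in ATF6aKO and -1.34 in ATF6bKO. In ATF6bKO it did not pass without ATF6bKO replicate 1 (-0.61) or without WT replicate 2 (-0.63). Barx1 lies on chromosome 13 from 48663036 to 48666507.

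Foxc1 moved the other way and was higher in both knockouts. It measured 7.52 and 7.62 in ATF6aKO, 7.48 and 7.29 in ATF6bKO, against 6.87 and 6.71 in WT. After normalisation all knockout arrays lay above both WT arrays, and both ATF6aKO arrays above both ATF6bKO arrays. Before it, the single Foxc1 spot read 161 and 156.5 in ATF6aKO, 139.5 and 111 in ATF6bKO, against 119 and 81 in WT. There ATF6bKO replicate 2 lay below WT replicate 1. The local background was 37 to 39 on the knockout arrays and 16 to 18 on the WT arrays. The log2 difference from WT was 0.78 ± 0.16 in ATF6aKO (SE; limma adjusted p = 0.00821; 1.72-fold higher) and 0.59 ± 0.16 in ATF6bKO (limma adjusted p = 0.0260; 1.51-fold higher). The value in ATF6bKO did not pass without either ATF6bKO array or without WT replicate 2, and both were larger with the scanner's background-subtracted signal, at 1.37 and 1.31; with 75th percentile scaling the value in ATF6bKO was 0.90. Foxc1 lies on chromosome 13 from 31806646 to 31810635.

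Against WT, then, the 6 genes did not form a single direction. The arrays of ATF6aKO and WT overlapped for none of the 6, as for 73.2% of all genes (34.6% higher and 38.6% lower), and the arrays of ATF6bKO and WT likewise for none, as for 72.8% (33.3% higher and 39.5% lower). In ATF6aKO all 6 were called, 2 higher and 4 lower, where 42.7% of all genes were called, 20.3% higher and 22.3% lower. In ATF6bKO 5 of the 6 were called, 1 higher and 4 lower, where 37.6% of all genes were called, 17.3% higher and 20.3% lower. The median log2 difference of the 6 was -0.75 in ATF6aKO and -0.81 in ATF6bKO, and that of all genes was -0.03 and -0.05. With the 75th percentile of each array as the scale, the median of all genes lay at 0.13 in ATF6aKO and 0.16 in ATF6bKO and that of the 6 at -0.62 and -0.59, so the lower genes stayed below the shifted centre. Both comparisons share the same 2 WT arrays. Without ATF6bKO replicate 1 or replicate 2 the calls in ATF6bKO were 0 higher and 2 lower.

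**Figure D3:**
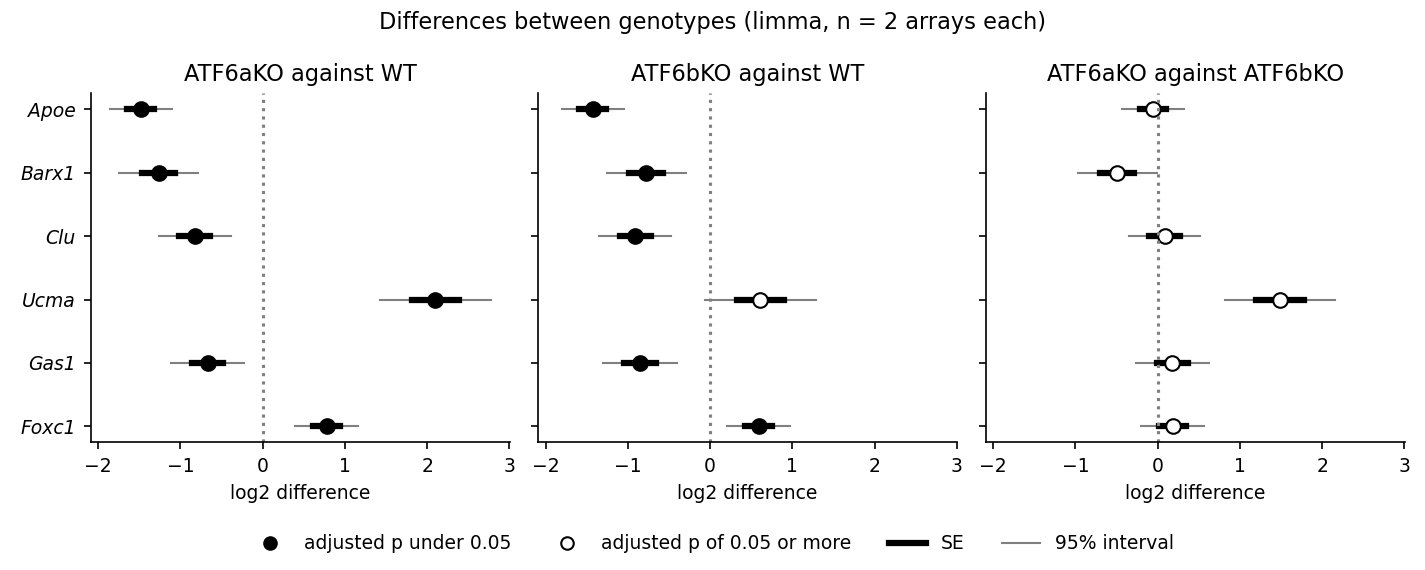
Log2 difference (horizontal axis) of each gene in ATF6aKO against WT, ATF6bKO against WT and ATF6aKO against ATF6bKO, with SE (thick) and 95% interval (thin); filled points have a limma adjusted p under 0.05. Ucma spans 2.10 in ATF6aKO against WT and 0.61 in ATF6bKO against WT, and no point is filled between the 2 knockouts.

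ATF6aKO against ATF6bKO, the comparison within 1 slide, asked whether these genes lay at different levels in the 2 knockouts. Each genotype filled its own row of that slide, so genotype cannot be told apart from row here. None of the 6 genes passed, and 0% of all genes did; limma gave 0 of 19122 at the threshold, with 1169 genes at an unadjusted p under 0.05. Ucma had the largest difference of the 6, at 1.49 ± 0.29 (SE; 2.80-fold), with a 95% interval of 0.81 to 2.16, an unadjusted limma p of 0.00105 and an adjusted p of 0.625. Of all genes, 75 (0.392%) lay at least as far above. In the fit of the 4 knockout arrays alone the adjusted p of Ucma was 0.0826, and over the 14 alternatives it ran from there to 0.9999. Leaving out single arrays gave 1.13 to 1.85, higher in ATF6aKO each time. Barx1 was -0.49 ± 0.21 with an interval of -0.97 to -0.01 and an adjusted limma p of 0.796. For the other 4 genes the interval held 0: it ran from -0.43 to 0.32 for Apoe, from -0.35 to 0.52 for Clu, from -0.27 to 0.63 for Gas1 and from -0.20 to 0.57 for Foxc1. Arrays of the 2 genotypes did not overlap for Ucma, Barx1 and Foxc1, or 3 of 6 (2 higher and 1 lower in ATF6aKO), against 36.9% of all genes (20.1% higher and 16.9% lower).

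Other genes of the resting zone and of the skeletal stem cells in it were set beside these 6. Of 12 listed genes 11 were measured, and 4 fell and 0 rose in ATF6aKO, 3 fell and 0 rose in ATF6bKO, and 0 differed between the knockouts. Of all genes 42.7% were called in ATF6aKO (22.3% lower) and 37.6% in ATF6bKO (20.3% lower). In both knockouts the share of this list called in either direction was smaller than that of all genes. The share called lower was larger than that of all genes in both. Axin2, a target and inhibitor of Wnt signalling, was -1.50 in ATF6aKO and -1.55 in ATF6bKO from WT (log2 difference). Chrd, the BMP antagonist chordin, was -1.03 and -0.84, and Grem1, the BMP antagonist gremlin, was -0.50 and -0.79. Itgav, an integrin subunit of skeletal stem cells, was -0.52 in ATF6aKO, and -0.33 in ATF6bKO, where it did not pass. Pthlh, the parathyroid hormone-related protein made by resting cells, was -0.05 and -0.08, and Sfrp5, a secreted Wnt antagonist of that zone, was -0.03 and 0.01, and neither passed. The list's median was -0.26 in ATF6aKO and -0.15 in ATF6bKO. Its count in ATF6aKO was 1 higher and 3 lower without WT replicate 1, and its count in ATF6bKO was 0 higher and 1 lower without ATF6bKO replicate 1.

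Hedgehog genes around Gas1 and Foxc1 went both ways. Of 13 measured genes 5 rose and 6 fell in ATF6aKO, and 5 rose and 5 fell in ATF6bKO, where 20.3% of all genes were called higher and 22.3% lower in ATF6aKO, and 17.3% higher and 20.3% lower in ATF6bKO. Ihh, the ligand made by prehypertrophic chondrocytes, was 1.95 above WT in ATF6aKO and 1.28 above in ATF6bKO. Gli3, a transcription factor of the pathway, was 1.36 and 1.33 above, and Hhip, which binds and holds back the ligand, was 1.13 and 0.92 above. Pth1r, the receptor for parathyroid hormone-related protein, was -1.66 and -2.63, and Sufu, which restrains the GLI factors, was -0.93 and -0.998. The co-receptors that share the role of Gas1 differed from each other in direction: Cdon was 0.65 and 0.82 from WT and Boc -0.93 and -0.92, and all 4 values passed. Foxc2, the close relative of Foxc1, was not well above background in either knockout and was at least 1.56-fold lower in ATF6aKO and at least 1.44-fold lower in ATF6bKO (limma adjusted p = 0.0197 and 0.0224). These bounds set the WT mean against the dim probe's signal or, where that was brighter, the faintest reading on the same array that counted as well above background. Without ATF6bKO replicate 1 the count in ATF6bKO was 2 higher and 2 lower.

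Around Ucma, a protein carboxylated with the help of vitamin K, 1 of 7 measured genes of carboxylation and Gla proteins rose in each knockout and 0 fell, a smaller share than the 42.7% and 37.6% called of all genes. That gene was Vkorc1l1, a vitamin K epoxide reductase, at 0.99 in ATF6aKO and 1.08 in ATF6bKO (log2 difference from WT). Mgp, the matrix Gla protein of cartilage, measured 9.51 and 10.24 in ATF6aKO, 8.44 and 7.85 in ATF6bKO, against 9.54 and 8.13 in WT. Its WT arrays lay on both sides of the ATF6bKO array at 8.44, and no comparison passed. Around Apoe and Clu, 1 of 14 receptors and lipid transport genes rose and 2 fell in ATF6aKO. In ATF6bKO 0 rose and 4 fell. The share called in either direction was again smaller than the 42.7% and 37.6% of all genes. The share that fell was below the 22.3% of all genes called lower in ATF6aKO, and above the 20.3% in ATF6bKO. Apod, another apolipoprotein, was -1.19 and -0.95, and Nr1h2, the sterol receptor LXR beta, was -0.82 and -0.58. Lcat, the cholesterol-esterifying enzyme of plasma, was -1.04 in ATF6aKO, where it did not pass, and -1.23 in ATF6bKO.

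Genes of the cartilage matrix, of the later layers and of dividing cells were counted as well, beside 20.3% of all genes called higher and 22.3% lower in ATF6aKO, and 17.3% higher and 20.3% lower in ATF6bKO. Of 14 cartilage matrix and SOX genes 11 rose and 1 fell in ATF6aKO (median 2.65), and 7 rose and 2 fell in ATF6bKO (median 1.08). Matn1, the cartilage matrix protein matrilin-1, was 4.49 above WT in ATF6aKO and 2.46 in ATF6bKO, and Col2a1, the main cartilage collagen, was 4.19 and 2.86 above. Between the knockouts 12 of the 14 had a positive difference, with a median of 1.35 and 0 past the threshold, beside 1.49 for Ucma. Of 11 hypertrophic genes 3 rose and 1 fell in ATF6aKO (median -0.45), and 2 rose and 1 fell in ATF6bKO (median -0.78). Col10a1, the collagen of hypertrophic chondrocytes, was 4.35 and 2.87 above WT, and Vegfa, which draws in vessels, was -1.45 and -0.90. Of 11 cell cycle genes 7 rose and 1 fell in ATF6aKO, and 6 rose and 2 fell in ATF6bKO, with Birc5, the survivin gene, 2.04 and 1.53 above WT. No member of these 3 lists passed between the knockouts.

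**Figure D4:**
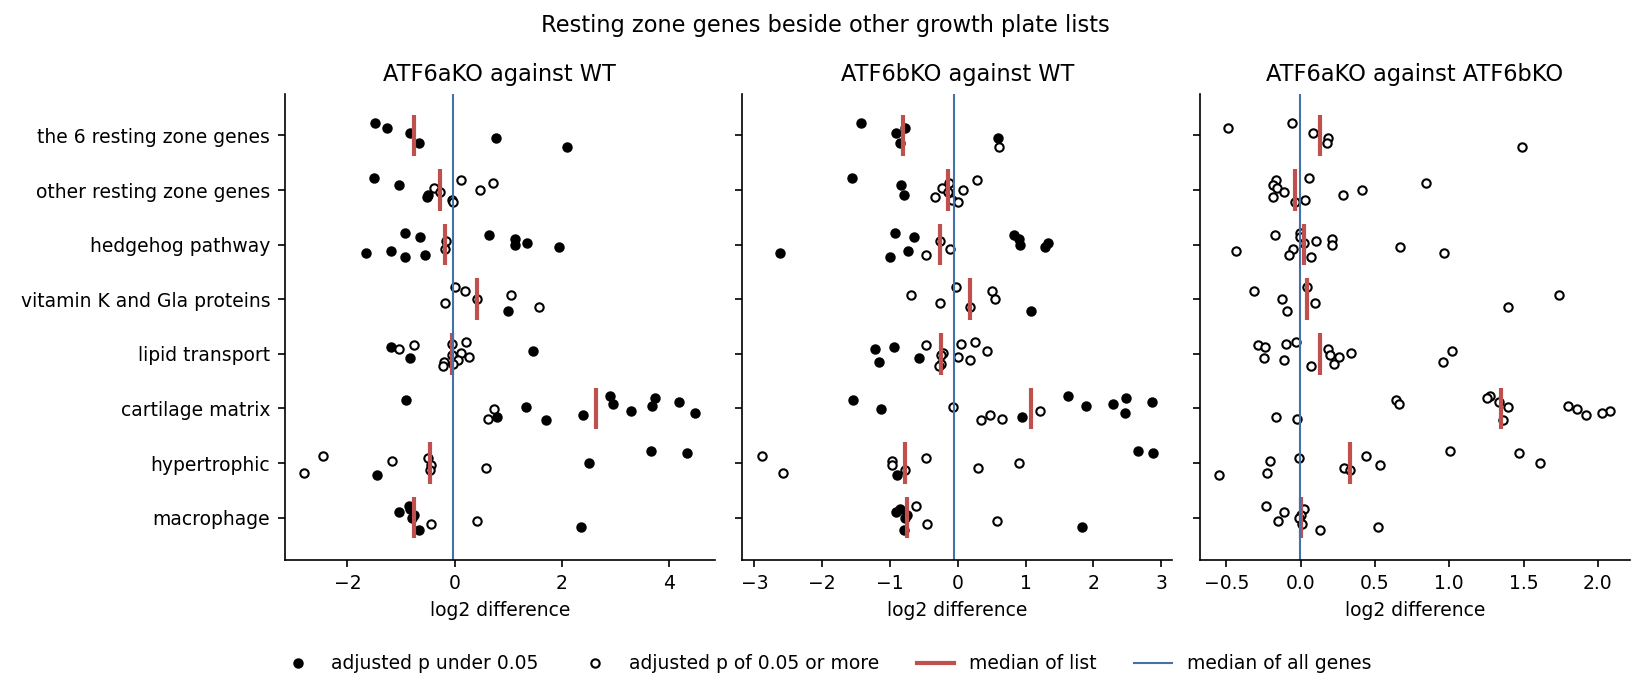
Log2 difference (horizontal axis, scaled separately in each panel) of every measured gene in 8 lists, for the 3 comparisons; filled points passed limma at an adjusted p under 0.05, red bars are list medians and the blue line the median of all genes. The 6 resting zone genes have a median of -0.75 in ATF6aKO and -0.81 in ATF6bKO against WT, with Ucma and Foxc1 above 0 in both. Medians are also below 0 for the macrophage list (-0.75 in both) and the hypertrophic list (-0.45 and -0.78). The other resting zone (-0.26 and -0.15), hedgehog (-0.17 and -0.26) and lipid transport (-0.05 and -0.25) medians are below 0 too. Those of the vitamin K list (0.42 and 0.18) and the cartilage matrix list (2.65 and 1.08) are above 0.

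Several of these genes are made by other cells as well, and a fall in bulk RNA can come from fewer cells of a type or less RNA per cell, which cannot be told apart here. Macrophages express Apoe, and 6 of 9 macrophage markers fell and 1 rose in ATF6aKO, while 5 fell and 1 rose in ATF6bKO, where 22.3% of all genes were called lower in ATF6aKO and 20.3% in ATF6bKO. Cd14 was -0.78 and -0.77 and C1qb -1.03 and -0.91 from WT, beside -1.48 and -1.43 for Apoe, whereas Lyz2 was 2.35 and 1.84 above WT. C1qc and Mrc1 were not well above background on the knockout arrays. Csf1r, the marker with the highest mean over the 6 arrays, did not pass, at 0.42 and 0.57. The summed normalised intensity of the list was higher in the knockouts, at 11149 to 15461 in ATF6aKO and 13308 to 14077 in ATF6bKO, against 10173 to 10491 in WT. Most of this sum is the single probe of Csf1r, whose log2 level was 13.58 and 12.93 in ATF6aKO and 13.44 and 13.37 in ATF6bKO, against 12.89 and 12.77 in WT. The median marker, centred on its own mean over the 6 arrays, ran the other way, at -0.25 to -0.09 log2 units in ATF6aKO and -0.21 in both ATF6bKO arrays, against 0.36 to 0.52 in WT. The part of macrophages in the Apoe difference was not tested.

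Perichondrium, tendon and synovium, whose fibroblasts also express Gas1, had 1 of 11 markers higher and 1 lower in ATF6aKO, and 0 higher and 1 lower in ATF6bKO, a smaller share than the 42.7% and 37.6% called of all genes. Clec3b, the tetranectin gene, was -0.92 and -0.83, and Prg4, the lubricin gene, with the highest mean of the list over the 6 arrays, did not pass, at 0.61 and 0.71. Fmod, the gene of the collagen-binding proteoglycan fibromodulin, was the marker that rose in ATF6aKO, by 2.07 (limma adjusted p = 0.0124), and measured 11.28 and 11.10 in ATF6aKO and 10.57 and 8.79 in ATF6bKO, against 9.20 and 9.03 in WT. The list's summed intensity overlapped between ATF6bKO and WT and was higher in ATF6aKO, at 6239 to 6528 in ATF6aKO and 4662 to 5305 in ATF6bKO, against 4600 to 5214 in WT. Endothelial markers fell in 4 of 8 genes in ATF6aKO and in 3 in ATF6bKO, and rose in 0, where 42.7% and 37.6% of all genes were called in either direction, and 22.3% and 20.3% of all genes were lower. Pecam1, the adhesion molecule CD31, was at -1.41 and -1.23. The summed intensity of the endothelial list was 1762 to 2153 in ATF6aKO and 1980 to 2077 in ATF6bKO, against 3613 to 4010 in WT, so the sum was lower on all 4 knockout arrays, as were Apoe, Barx1, Clu and Gas1. Red cell markers fell in 4 of 7 and rose in 0 in each knockout, beside the same 22.3% and 20.3% of all genes, with a sum of 1166 to 1500 in ATF6aKO and 1518 to 1741 in ATF6bKO, against 5932 to 33393 in WT. Their part in the differences of the 6 genes was not tested.

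Osteoblast and osteocyte markers fell in 1 of 5 measured genes in each knockout and rose in 0, and their sum was 2553 and 3191 in ATF6aKO and 1308 and 1071 in ATF6bKO, against 79506 (replicate 1) and 822 (replicate 2) in WT. Osteoclast markers rose in 1 of 8 and fell in 1 in each knockout, with a sum of 2522 and 2962 in ATF6aKO and 2688 and 2509 in ATF6bKO, against 17188 (replicate 1) and 2052 (replicate 2) in WT. The 6 genes did not share a split of that size between the WT arrays: the largest, for Barx1, was -0.29 (WT replicate 1 minus WT replicate 2). Of adipocyte markers 1 of 8 fell and 0 rose in each knockout, and of skeletal muscle markers 2 of 8 rose and 3 fell in each. Against the 42.7% and 37.6% of all genes called, the called share was smaller for the osteoblast, osteoclast and adipocyte lists and larger for the muscle list.

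The genes with the most similar pattern were found by the root mean square difference of mean-centred log2 levels over the 6 arrays. For Apoe these were Mfsd5 (0.036 log2 units), Rb1, the retinoblastoma gene (0.048), and Tpgs1 (0.057). For Barx1 they were Gm3086 (0.051), Mcrs1 (0.054) and Septin1 (0.057), for Clu Gm20604 (0.063), the sialyltransferase gene St3gal1 (0.064) and the olfactory receptor gene Olfr971 (0.064), and for Gas1 Cyb561d2 (0.060), Svbp (0.068) and Bpifb3 (0.069). Foxc1 was most like Tmtc2 (0.031), F630042J09Rik (0.043) and the transcription factor gene Nfib (0.049). The nearest genes to Ucma were further off: Pygl, a glycogen phosphorylase (0.144), Niban2 (0.179) and Vit, the matrix protein gene vitrin (0.185). This measure is not scaled for how far a gene varies, and Ucma had the largest difference from WT of the 6, at 2.10 in ATF6aKO. Pygl measured 9.66 and 10.32 in ATF6aKO, 8.99 and 8.44 in ATF6bKO, against 7.97 and 7.87 in WT. Its order of genotypes is that of Ucma because it was picked for a similar pattern over these arrays. None of the 6 genes was among the 3 nearest of another.

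**Figure D5:**
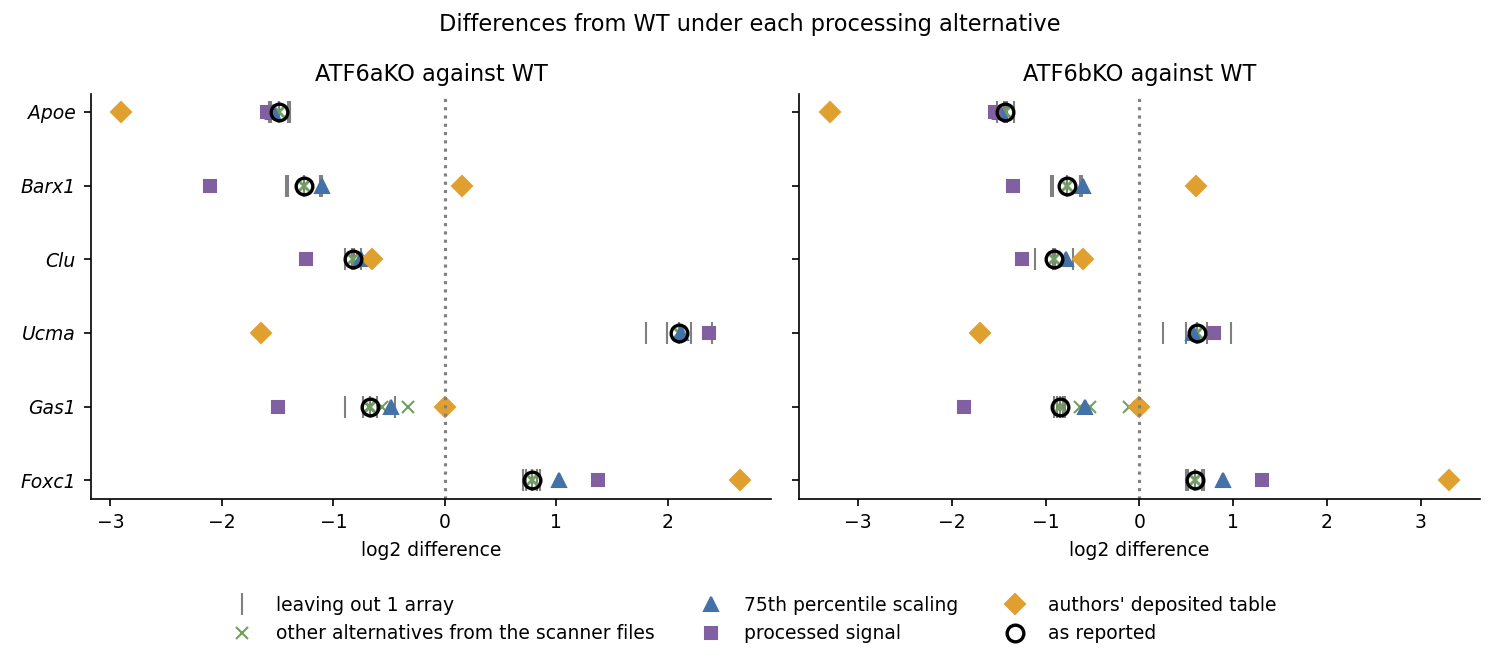
Log2 difference from WT (horizontal axis) of each gene in ATF6aKO and ATF6bKO as reported (open circles) and under each processing alternative. All values computed from the scanner files keep the sign of the reported one, while the table the authors deposited, in which knockout values track the green channel, places Ucma at -1.65 and -1.70 and Barx1 at 0.15 and 0.60.

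In the authors' deposited table the differences of Ucma and Barx1 from WT had the opposite sign, and those of Gas1 were 0 in both knockouts. Apoe was at -2.90 and -3.30, Clu at -0.65 and -0.60 and Foxc1 at 2.65 and 3.30 from WT in the authors' deposited table. Differences between arrays in that table followed the green processed signal (r of at least 0.998 over probes), and among the knockout arrays they followed the red signal, which carries the labelled dye, at r between -0.026 and 0.104. In the green channel of the knockout arrays 0 of 68 spot readings of the 6 genes were well above background, with intensities from 17 to 29.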

How the data were processed

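Total RNA of 6 tibial growth plate samples was amplified, labelled as cDNA with Cy5 and hybridised to Agilent mouse arrays, per the labels' protocols. The submitters' processing notes name Agilent Feature Extraction 10.7.1.1 as the software behind the deposited spot intensity files. Per the file headers, a 2-channel protocol read the knockout arrays (red used here), and a 1-channel protocol, with its channel called green, read the WT arrays. The authors' deposited table holds log2 values of the same arrays, with column medians from 0 to 0.227 on the knockout arrays and of -0.5 on both WT arrays; how these were centred stays unknown, and the table served as an alternative only.

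From the median spot and background intensity, background was corrected with normexp (limma 3.58.1, R 4.3.3, offset 50), log2 was taken, controls and flagged outliers were dropped (which lost 288 probes), repeated spots were averaged per probe and quantile normalisation was applied. Probes were named by RefSeq accession from a GRCm38.p6 gene table, which also gave the gene positions and promoters; the array's own design uses another build. A gene entered the tests through its brightest probe among those that exceeded background clearly on both arrays of some genotype, and 19122 genes did. lmFit and eBayes were fitted over all 6 arrays with genotype as the term, and p-values were adjusted over all genes by Benjamini-Hochberg. The procedure was tested on simulated data. Median background intensity was 37 for knockout and 17 for WT arrays.

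The 6 genes and all lists were chosen with earlier results of these data known. The naming rule took the 6 genes with all their probes, Atf6 and Atf6b, up to 3 genes of smallest p in a list with the brightest marker of a cell type list, and the 3 genes most like each of the 6. Outside it, Pthlh, Sfrp5, Cdon, Boc, Foxc2, Sox9 and Mrc1 were named after their values were seen. The values of 1 listed gene are not reported here. Alternatives were 75th percentile scaling, the processed signal, the authors' table, other filters on dim probes, other rules from probe to gene, another variance model, other arrays in the fit, a replicate block and leaving out each array.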

Additional observations from a re-analysis of the deposited data

How the results depend on the processing

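Over 14 alternatives from the scanner files, with 1 choice changed at a time, the differences of the 6 genes from WT kept their sign in both knockouts, and Apoe passed in both and Barx1, Ucma and Foxc1 in ATF6aKO under all of them. With 75th percentile scaling Gas1 in ATF6aKO did not pass (-0.48), and the split of calls among all genes was 5163 higher and 3601 lower in ATF6aKO and 4828 and 3053 in ATF6bKO, in place of 3886 and 4271, and 3313 and 3877; the authors' deposited values gave 6893 and 2824, and 6964 and 2930. Leaving out 1 array gave 4682 to 8061 calls in ATF6aKO against WT in place of 8157 (lowest without ATF6aKO replicate 2), 3080 to 7019 in ATF6bKO against WT in place of 7190 (3080 without ATF6bKO replicate 1 and 3795 without ATF6bKO replicate 2) and 0 to 8 in ATF6aKO against ATF6bKO in place of 0 (8 without ATF6aKO replicate 2).

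Sign changes from WT came only from the authors' deposited table, at 0.15 for Barx1 and -1.65 for Ucma in ATF6aKO and 0.60 and -1.70 in ATF6bKO. Between the knockouts, small differences changed sign: with those deposited values 0.40 for Apoe, -0.05 for Clu and -0.65 for Foxc1; and for Gas1 -0.032 with the mean over probes, -0.22 with probe A_51_P157083 and -0.053 with A_55_P2070510. Leaving out 1 array gave -0.044 to 0.40 for Gas1 (negative without ATF6aKO replicate 1), -0.13 to 0.021 for Apoe (positive without ATF6aKO replicate 2) and -0.12 to 0.29 for Clu (negative without ATF6bKO replicate 2). Knockout values in the authors' table track the green channel; for the others the cause was not tested.

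The replicate numbers were not shown to pair the arrays: deviations of same-numbered arrays correlated at -0.07 between ATF6aKO and WT, 0.20 between ATF6bKO and WT and -0.16 between the knockouts. With the replicate number as a block, 7594, 6630 and 0 genes passed in the 3 comparisons and no call of the 6 genes changed. With 2 arrays a genotype, a left-out array leaves 1 that is assumed to vary like the others.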
